A study of Arabidopsis thaliana with 22 samples.

Results

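The genes described here encode 10 plasma membrane intrinsic proteins (PIPs) of Arabidopsis thaliana, the aquaporins that carry water across the plasma membrane of root cells. They were taken by locus, without a cutoff on their values, but with earlier results of these data known. They are the rows of the expression table that belong to 10 named PIP loci. This gave 14 rows (transcript models) among 31524 rows in all, or 10 of 27143 loci. Each gene carries a numbered name and an older letter name, and both are synonyms in the RefSeq gene table of assembly TAIR10.1. The letter names are used below. PIP1A is PIP1;1 (AT3G61430), PIP1B is PIP1;2 (AT2G45960), PIP1C is PIP1;3 (AT1G01620), PIP1E is PIP1;4 (AT4G00430) and PIP1D is PIP1;5 (AT4G23400). PIP2A is PIP2;1 (AT3G53420), PIP2B is PIP2;2 (AT2G37170), PIP2C is PIP2;3 or RD28 (AT2G37180), PIP2F is PIP2;4 (AT5G60660) and PIP3A is PIP2;7 (AT4G35100).

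Aquaporins are membrane proteins that assemble as tetramers, each subunit with a pore of its own. Water that enters a root crosses epidermis and cortex on its way to the stele, partly through cells and therefore through PIP pores, and the water conductance of roots is known to fall when PIPs are closed or withdrawn from the membrane and to respond to the nitrate supply. PIP2 proteins are efficient water channels by themselves, whereas PIP1 proteins often reach the plasma membrane only in complexes with a PIP2 partner.

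The study asked how epidermal and cortical root cells respond to nitrate in the wild type Col0 and in the mutant atscl26, named for SCL26, a member of the GRAS family of transcriptional regulators. Seedlings of both genotypes carried a green fluorescent reporter that marks either epidermal or cortical cells, grew for 9 days on medium that held 0.1 mM KNO3 beside 30 mM sucrose, and then received either 5 mM KNO3 or a control treatment for 2 hours. Roots were turned into protoplasts, marked cells were sorted by fluorescence, and amplified RNA was hybridised in 1 colour to NimbleGen arrays. The 8 groups are Col0 epidermis under KCl (n = 3) and KNO3 (n = 3), Col0 cortex under KCl (n = 3) and KNO3 (n = 2), atscl26 epidermis under KCl (n = 2) and KNO3 (n = 3), and atscl26 cortex under KCl (n = 3) and KNO3 (n = 3). The control is named as 5 mM KCl in the sample names and as fresh plates with 0.1 mM KNO3 in the protocol, and the age is given as 12 days in the sample names. The labels call the arrays biological replicates and do not name the reporter promoters. The mutant allele appears as atscl26-2 in the headers of the deposited averages, and the kind of mutation is not given in the sources used here. Values are log2 expression levels as deposited, and a difference of 1 on this scale is a doubling of signal. The hybridised signal comes from sorted cells in bulk, so fewer cells of a type and less RNA per cell cannot be told apart.

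Several of the 22 arrays stood apart or went against their labels before any aquaporin was considered. An epidermis score was taken for each array as the mean of 16 epidermal markers minus the mean of 4 cortical markers, and it averaged -0.17 over the arrays labelled epidermis and -1.08 over those labelled cortex. In 8 arrays the score lay nearer the mean of the other label, and these are called discordant below. They were Col0 epidermis KCl replicates 1 and 2, atscl26 epidermis KNO3 replicates 2 and 3, Col0 cortex KNO3 replicate 1, atscl26 cortex KCl replicate 3 and atscl26 cortex KNO3 replicates 2 and 3. Nearest the midpoint of -0.63 were Col0 cortex KNO3 replicate 1 (-0.40) and atscl26 cortex KNO3 replicate 2 (-0.13). Their cortex markers, 10.14 and 10.01, lay within the 9.75 to 10.89 of the 7 cortex arrays on the side of their label. Cortex markers averaged 10.53 to 11.58 in the 4 discordant epidermis arrays and 7.61 to 9.39 in the other 7. Endodermis markers, the Casparian strip genes among them, averaged 8.20 to 11.43 in those 4 arrays and 7.09 to 8.73 in the 7. Non-hair epidermis markers averaged 8.04 to 9.82 in the 4 and 9.44 to 11.27 in the 7. Root hair markers, also part of the score, did not follow, at 7.96 to 9.71 and 8.34 to 9.12. In arrays labelled cortex they averaged 9.08 to 9.73 in the 4 discordant ones and 7.96 to 9.19 in the other 7. Their medians over all arrays labelled epidermis and cortex were 8.56 and 8.72. In 4 arrays the median r with the rest was 0.562 to 0.80, against 0.852 to 0.921 for the other 18. Among these 4 were 2 discordant ones, replicate 1 of Col0 cortex under KNO3 and replicate 2 of Col0 epidermis under KCl, beside Col0 epidermis KNO3 replicate 3 and atscl26 cortex KNO3 replicate 1. A raised lowest value of 5.25 to 5.34 was found in 4 arrays labelled cortex, of which 2 were also among the poorly correlated ones. The authors' deposited averages per group equalled the mean of the labelled arrays in 6 of 8 groups. The exceptions were the Col0 cortex KNO3 average, which also took in atscl26 cortex KCl replicate 1, and the Col0 epidermis KCl average, which left out replicate 2 and took in atscl26 epidermis KNO3 replicate 1. SCL26 itself had a median level of 7.94 (7.0 to 11.26) in 11 arrays labelled Col0 and 8.30 (7.66 to 9.11) in 11 labelled atscl26, so its signal did not separate the genotypes, and where its probes lie relative to the mutation was not given in the sources used here. Every genotype below is therefore that of the label.

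As labelled, none of the 10 aquaporin genes passed an adjusted p of 0.05 in any of the 19 comparisons made (limma on all 22 arrays, Benjamini-Hochberg over 31524 rows). The background was as low, with 0% of all rows past the threshold in 18 comparisons and 0.00317% (1 row) in the comparison of epidermis with cortex averaged over genotypes and treatments. The values that follow are therefore descriptions unless a test is named as passed. What the PIPs showed most clearly was a lower signal in arrays with epidermal markers than in arrays with cortical markers, strongest in PIP2A and PIP2B. That difference passed the test in 4 of the 10 genes when the 8 discordant arrays, chosen on cell type markers of the same arrays, were left out, a fit in which 3.33% of all rows were called and 1.67% were lower in epidermis.

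**Figure D1:**
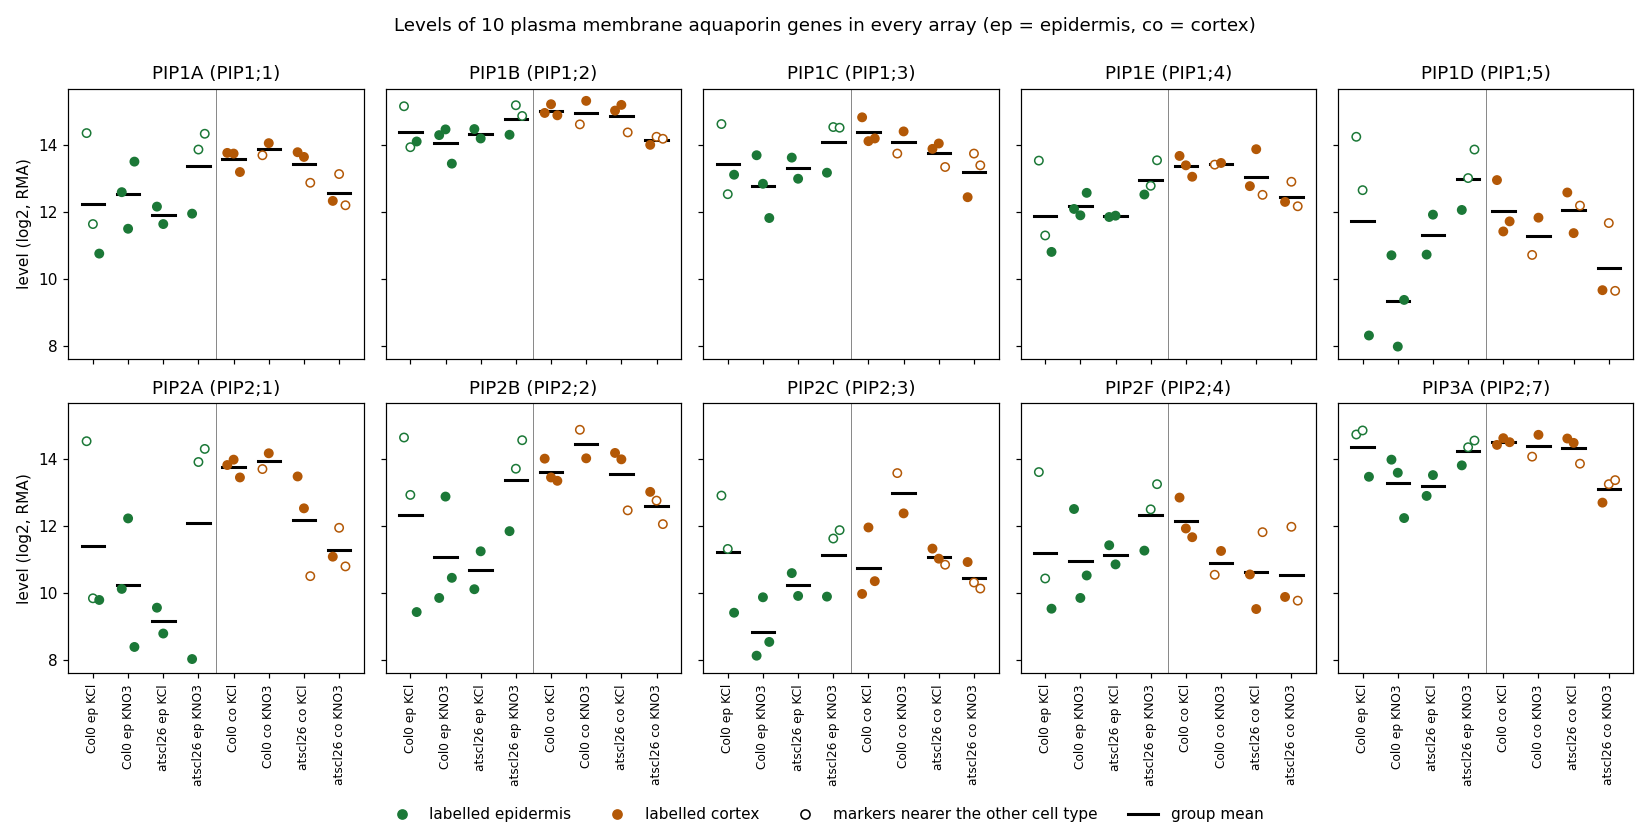
Level of each of the 10 aquaporin genes in all 22 arrays (vertical axis, log2 after RMA) for the 8 groups (horizontal axis, epidermis on the left and cortex on the right of the grey line). Points are single arrays, green for those labelled epidermis and orange for those labelled cortex, open points are the 8 discordant arrays, and bars are group means. In PIP2A the filled green points lie at 8.04 to 12.23 and the filled orange points at 11.09 to 14.17.

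PIP1A, a PIP1 aquaporin of the root, was measured between 10.75 and 14.34. In Col0 it read 14.34, 11.63 and 10.75 in epidermis under KCl, 12.58, 11.49 and 13.49 in epidermis under KNO3, 13.75, 13.73 and 13.18 in cortex under KCl, and 13.68 and 14.04 in cortex under KNO3. In atscl26 it read 12.15 and 11.63 in epidermis under KCl, 11.94, 13.85 and 14.32 in epidermis under KNO3, 13.77, 13.63 and 12.86 in cortex under KCl, and 12.32, 13.12 and 12.19 in cortex under KNO3. The 3 highest epidermis arrays were discordant ones, and without such arrays the epidermis (10.75 to 13.49) and the cortex (12.32 to 14.04) still overlapped.

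PIP1E (PIP1;4), known to carry carbon dioxide and hydrogen peroxide as well as water, ran closest to PIP1A of all pairs of members, with a Pearson r of 0.91 over the 22 arrays. It read 13.52, 11.29 and 10.80 in Col0 epidermis under KCl, 12.08, 11.89 and 12.56 under KNO3, 11.84 and 11.88 in atscl26 epidermis under KCl, and 12.51, 12.77 and 13.53 under KNO3. In cortex it read 13.66, 13.38 and 13.04 in Col0 under KCl, 13.40 and 13.45 in Col0 under KNO3, 12.76, 13.86 and 12.50 in atscl26 under KCl, and 12.29, 12.89 and 12.16 in atscl26 under KNO3. All 5 Col0 cortex arrays lay above every Col0 epidermis array but the discordant replicate 1 under KCl.

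The other PIP1 genes differed less between cell types when averaged over genotypes and treatments. For PIP1D that average joined differences of opposite sign. Under KNO3 its group means were 9.35 in epidermis and 11.27 in cortex in Col0, but 12.97 and 10.32 in atscl26. PIP1B (PIP1;2), a large contributor to root water conductance, spanned only 13.43 to 15.30, and its group means ran from 14.05 ± 0.55 (SD, n = 3) in Col0 epidermis under KNO3 to 15.01 ± 0.17 (n = 3) in Col0 cortex under KCl. PIP1C spanned 11.81 to 14.81 and had its lowest and highest group means in the same groups, 12.77 ± 0.94 and 14.36 ± 0.39 (both n = 3). PIP1D (PIP1;5) had a wide span of 7.98 to 14.23. Its lowest group was Col0 epidermis under KNO3, with 10.70, 7.98 and 9.37, and its highest was atscl26 epidermis under KNO3, with 12.05, 13.00 and 13.85. Those groups were picked as the extremes of the 8 group means, and replicates 2 and 3 of the higher one were discordant arrays. In average epidermis minus cortex the models of a locus had the same sign. The 3 models of PIP1B gave log2 differences of -0.43 to -0.25, those of PIP1C -0.54 and -0.45, and those of PIP1E -0.86 and -0.69. In other comparisons models could differ, as for nitrate in Col0 epidermis, where the models of PIP1E gave 0.31 ± 0.57 and -0.49 ± 0.64 (SE).

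PIP2A (PIP2;1), a main water channel of roots that also carries hydrogen peroxide, had the widest span of the 10 genes, 8.04 to 14.53. In Col0 it read 14.53, 9.85 and 9.80 in epidermis under KCl, 10.13, 12.23 and 8.40 in epidermis under KNO3, 13.82, 13.98 and 13.45 in cortex under KCl, and 13.70 and 14.17 in cortex under KNO3. In atscl26 it read 9.57 and 8.80 in epidermis under KCl, 8.04, 13.91 and 14.30 in epidermis under KNO3, 13.48, 12.53 and 10.51 in cortex under KCl, and 11.09, 11.95 and 10.80 in cortex under KNO3. The 3 epidermis arrays near 14 were all discordant, and so was the lowest array of atscl26 cortex under KCl. Over the 7 epidermis arrays on the side of their label the median was 9.57, against 14.10 in the 4 discordant ones, and over cortex arrays it was 13.48 in 7 and 11.38 in 4.

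PIP2B (PIP2;2), which is needed for the full water permeability of root cells, showed the same layout. It read 14.64, 12.93 and 9.44 in Col0 epidermis under KCl, 9.86, 12.88 and 10.46 under KNO3, 10.12 and 11.25 in atscl26 epidermis under KCl, and 11.85, 13.71 and 14.56 under KNO3. In cortex it read 14.01, 13.45 and 13.35 in Col0 under KCl, 14.87 and 14.02 in Col0 under KNO3, 14.18, 13.99 and 12.47 in atscl26 under KCl, and 13.02, 12.76 and 12.06 in atscl26 under KNO3. With discordant arrays set aside, the 7 epidermis arrays (9.44 to 12.88) lay wholly below the 7 cortex arrays (13.02 to 14.18). PIP2B was the 1 member of 10 whose arrays separated in this way, which 0.955% of all rows did.

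PIP2C (PIP2;3), first isolated as a gene that responds to desiccation, lies next to PIP2B on the chromosome, with 0 annotated genes starting between them, and their coding sequences are closely alike. Signal of one on the probes of the other could not be told apart, and their levels correlated at r = 0.80. PIP2C read 12.91, 11.32 and 9.42 in Col0 epidermis under KCl, 8.14, 9.88 and 8.55 under KNO3, 9.98, 11.96 and 10.36 in Col0 cortex under KCl, and 13.58 and 12.38 under KNO3. In atscl26 its groups lay closer together, at 10.26 ± 0.48 (n = 2) in epidermis and 11.07 ± 0.24 (n = 3) in cortex under KCl, and 11.14 ± 1.08 and 10.46 ± 0.41 (both n = 3) under KNO3. The Col0 KNO3 groups were therefore its extremes, with every cortex array at least as high as 12.38 and every epidermis array at 9.88 or lower.

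PIP2F (PIP2;4), an isoform found mainly in roots, differed from the other PIP2 genes in its layout. It ranged from 9.54 to 13.61 in epidermis and from 9.53 to 12.85 in cortex, with medians of 11.27 and 11.26, and its correlations with PIP2B and PIP2C were the lowest among the 45 pairs, 0.28 and 0.21. Its correlations were higher with PIP1D (0.74, the highest of PIP1D with any member), PIP1C (0.66) and PIP1A (0.58). PIP3A (PIP2;7), named in part for its response to salt, was measured at 12.24 to 14.85. All 4 discordant epidermis arrays (14.35 to 14.85) lay above the other 7 (12.24 to 13.98), and over cortex arrays the medians were 14.50 in 7 and 13.61 in 4. Over the 45 pairs of members the median r was 0.66, with 4 pairs above 0.8 and 11 below 0.5. These correlations are over arrays that share cell type makeup and normalisation and describe the layout only.

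In the order of the 8 group means, few neighbours were set apart. Among the 70 neighbouring pairs over the 10 genes, 6 had a gap larger than the larger SD of the pair, and in 2 the arrays did not overlap. How often this occurs in other rows was not counted, so these counts only describe the members. Col0 cortex groups held the highest mean in 8 genes, the exceptions being PIP1D and PIP2F, which were highest in atscl26 epidermis under KNO3. The first of the 2 pairs without overlap was PIP2B in Col0 cortex, 14.45 ± 0.60 (n = 2) under KNO3 over 13.60 ± 0.36 (n = 3) under KCl. The lowest KNO3 array read 14.02 and the highest KCl array 14.01, and the other KNO3 array, 14.87, was the discordant replicate 1. The second was PIP2C in atscl26 epidermis under KCl over Col0 epidermis under KNO3, 8.86 ± 0.91 (n = 3). There the facing arrays read 9.92 and 9.88, so both pairs were barely apart.

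Averaged over both genotypes and treatments, 9 of the 10 aquaporin genes were lower in arrays labelled epidermis than in arrays labelled cortex, with a median log2 difference of -0.65 against -0.08 over all rows. PIP2A differed by -2.06 ± 0.76 (SE, adjusted p = 0.782) and PIP2B by -1.69 ± 0.55 (adjusted p = 0.777). PIP2C followed with -0.95 ± 0.41 (adjusted p = 0.807), PIP1E with -0.86 ± 0.30 (adjusted p = 0.777) and PIP1A with -0.84 ± 0.41 (adjusted p = 0.83). Smaller differences were seen in PIP1C (-0.45 ± 0.31), PIP1B (-0.35 ± 0.22), PIP3A (-0.32 ± 0.25) and PIP1D (-0.07 ± 0.58), and PIP2F had the one positive value, 0.35 ± 0.50, all at adjusted p of 0.901 or more. At an unadjusted p under 0.05, 4 of 10 members were lower, where 3.10% of all rows were. No direction changed when any single array was left out except that of PIP1D.

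Without the 8 discordant arrays the same difference was larger in 9 genes and passed the test in 4. PIP2A was lower in epidermis by -3.68 ± 0.61 on the log2 scale (adjusted p = 0.0162), PIP2B by -2.92 ± 0.53 (adjusted p = 0.0232), PIP1E by -1.26 ± 0.27 (adjusted p = 0.0442) and PIP1A by -1.63 ± 0.36 (adjusted p = 0.0472). PIP2C missed the threshold at -1.70 ± 0.45 (adjusted p = 0.0807). The remaining values were -1.11 ± 0.54 for PIP1D, -0.70 ± 0.35 for PIP1C, -0.68 ± 0.33 for PIP3A, -0.66 ± 0.25 for PIP1B and -0.11 ± 0.50 for PIP2F, at adjusted p of 0.202 to 0.922. In this fit, with 3.33% of all rows called, the median over all rows was -0.15 against -1.19 for the members. The arrays were set aside on cell type markers, so the fit describes arrays sorted by those markers and is no check of the labels. It leaves 14 arrays and 4 groups with 1 array each, assumed to vary like the rest.

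**Figure D2:**
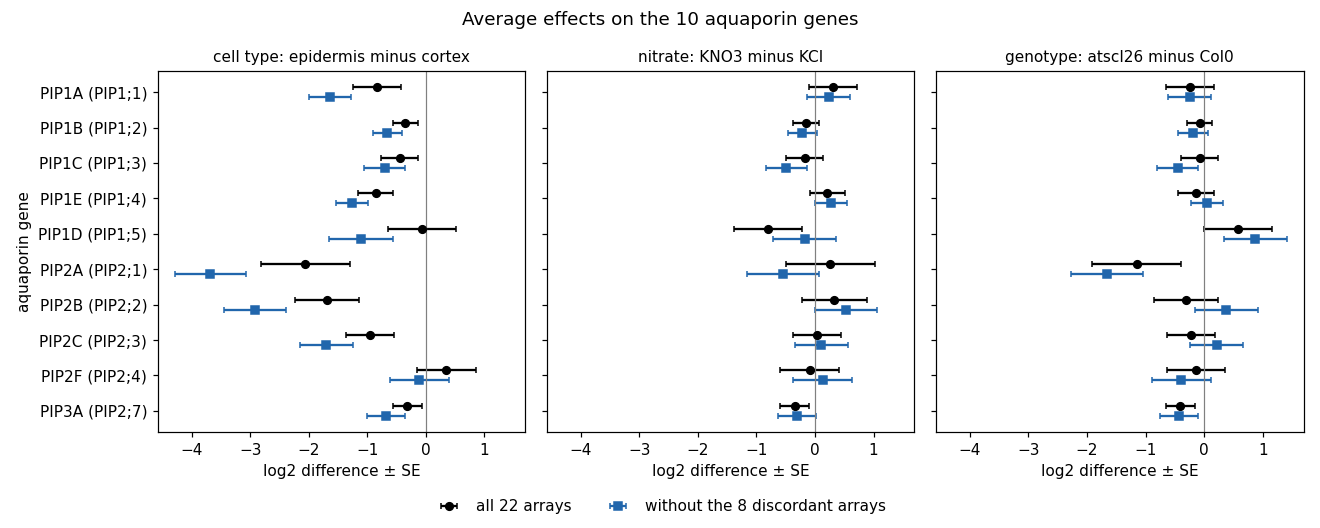
Average log2 difference ± SE for each of the 10 aquaporin genes (rows) between epidermis and cortex, KNO3 and KCl, and atscl26 and Col0 (panels), each averaged over the other factors. Black circles are fits to all 22 arrays and blue squares fits without the 8 discordant arrays. In the cell type panel PIP2A moves from -2.06 to -3.68 and PIP2B from -1.69 to -2.92, while most nitrate and genotype values lie within about 1 SE of 0.

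The size of the cell type difference followed how the arrays were treated. With the epidermis score as a covariate PIP2A differed by -1.23 and PIP2B by -1.11 (adjusted p = 1 for each). The deposited averages place 3 arrays differently, leaving them out of their own group or counting them in another as well. Without these 3 arrays PIP2A differed by -1.19 and PIP2B by -1.49 (adjusted p = 0.656 for each). The 4 arrays with a raised lowest value were all labelled cortex, and with a term for them PIP2A differed by -2.06 and PIP2B by -1.43 (adjusted p = 0.999 for each).

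**Figure D3:**
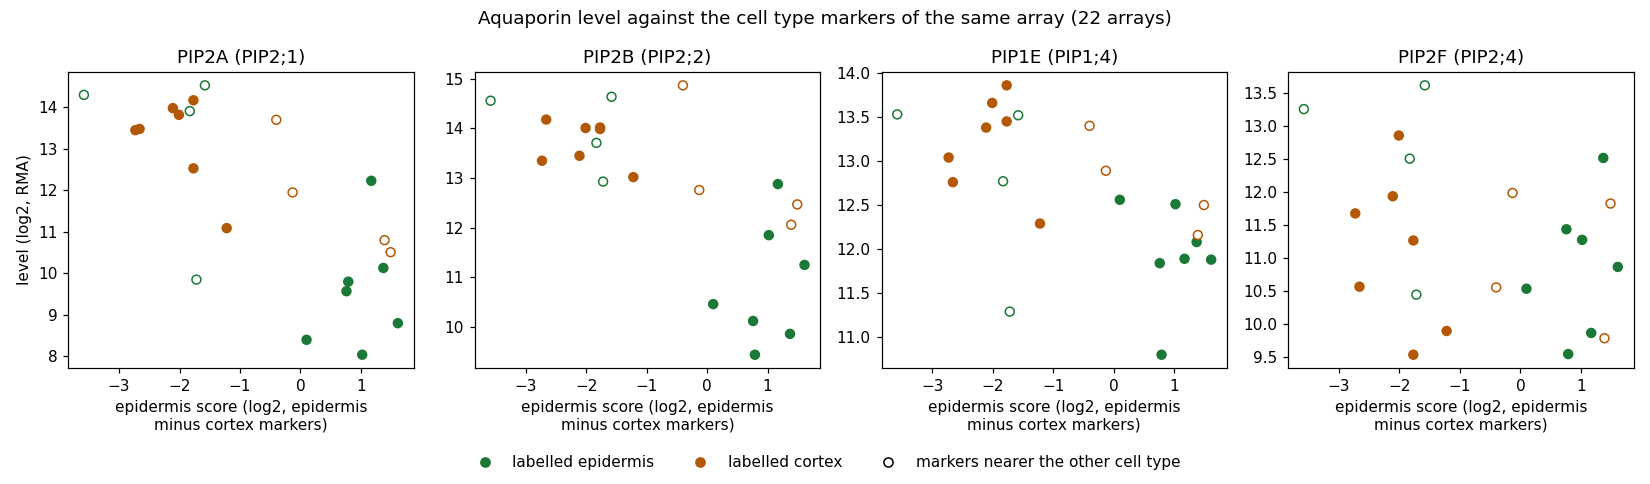
Level of PIP2A, PIP2B, PIP1E and PIP2F (vertical axes, log2) against the epidermis score of the same array (horizontal axis, log2, epidermal minus cortical markers) in 22 arrays. Colours give the label and open points the 8 discordant arrays. PIP2B lies at 9.44 to 12.88 in the 7 filled green points and at 13.02 to 14.18 in the 7 filled orange points, whereas PIP2F covers nearly the same range on both sides.

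Cell type was also compared within each genotype and treatment. In Col0 under KNO3, 9 of 10 genes were lower in epidermis and 4 of them at an unadjusted p under 0.05, where 3.37% of all rows were lower at that level. PIP2C had the largest difference, -4.12 ± 0.86 (adjusted p = 0.388), followed by PIP2B with -3.38 ± 1.16 (adjusted p = 0.494). Only on leaving out Col0 cortex KNO3 replicate 2 did PIP2C pass, at -4.72 (adjusted p = 0.0299), in a fit where 827 of 31524 rows passed. The single cortex array then left, replicate 1, was discordant and correlated poorly with the others. In Col0 under KCl 9 of 10 were lower, PIP1E by -1.49 ± 0.57 and PIP1A by -1.31 ± 0.77 (adjusted p = 0.845 for both), with 1 gene at an unadjusted p under 0.05 where 2.94% of all rows were lower. Of the 3 Col0 epidermis KCl arrays 2 were discordant, and without discordant arrays PIP1E was at -2.56 ± 0.53 (adjusted p = 0.0995) and PIP1A at -2.80 ± 0.70 (adjusted p = 0.17). Leaving out single arrays gave -2.32 to -0.96 for PIP1E and -2.36 to -0.57 for PIP1A, the ends coming without replicates 1 and 3 of Col0 epidermis KCl. In atscl26 under KCl 9 of 10 were lower, PIP2B by -2.86 ± 1.16 and PIP3A by -1.11 ± 0.54 (adjusted p = 1 for both), again with 1 gene at that level, where 1.55% of all rows were lower.

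The atscl26 groups under KNO3 ran the other way. All 10 genes were higher in the arrays labelled epidermis, with a median of 0.82. An unadjusted p under 0.05 was reached by 2, where 2.11% of all rows were higher at that level. For the comparisons of 2 groups and the interactions, the signs of all rows were not counted, so sign counts only describe the members. PIP1D was higher by 2.65 ± 1.1 and PIP3A by 1.13 ± 0.48 (adjusted p = 0.909 for both). In this pair of groups 2 of the 3 arrays on each side were discordant, the epidermis score reaching -3.58 in the epidermis group and 1.39 in the cortex group. Without them 6 of 10 genes were higher and PIP2A was lower by -3.05 ± 1.44 (adjusted p = 0.283), from 1 array on each side.

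Nitrate addresses whether 2 hours of 5 mM KNO3 changed the PIPs. Averaged over genotypes and cell types, 5 genes were higher and 5 lower, from -0.80 ± 0.58 in PIP1D to 0.33 ± 0.55 in PIP2B, with adjusted p = 1 for all 10. PIP3A was at -0.35 ± 0.25, PIP1C at -0.18 ± 0.31, PIP1B at -0.16 ± 0.22 and PIP2F at -0.09 ± 0.50. PIP2C was at 0.03 ± 0.41, PIP1E at 0.21 ± 0.30, PIP2A at 0.26 ± 0.76 and PIP1A at 0.30 ± 0.41. None of the 10 reached an unadjusted p under 0.05, against 2.33% of all rows. Genes that nitrate is known to induce gave no positive control in these arrays, since the nitrate reductase gene NIA1 was at -0.34 ± 0.28 and the nitrite reductase gene NIR1 at -0.38 ± 0.41 (adjusted p = 1 for both).

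Within single groups the nitrate differences of the PIPs took both signs. In Col0 epidermis 8 of 10 genes were lower under KNO3, PIP2C by -2.36 ± 0.77 and PIP3A by -1.08 ± 0.48 (adjusted p = 0.909 for both), and 3 were lower at an unadjusted p under 0.05 where 2.22% of all rows were. Without the discordant arrays 6 of 10 were higher, from 1 array under KCl. In Col0 cortex 5 were higher and 5 lower, with PIP2C at 2.21 ± 0.86 and PIP2F at -1.24 ± 1.06 (adjusted p = 0.896 for both), and 1 gene was higher at that level against 1.89% of rows. PIP2C thus had opposite signs in Col0 epidermis and cortex, and the difference between them was -4.57 ± 1.15 (adjusted p = 0.761). The Col0 epidermis value of PIP2C was -0.56 without the discordant arrays.

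In atscl26 epidermis all 10 genes were higher under KNO3, with a median of 1.13, PIP2B by 2.68 ± 1.16 and PIP3A by 1.03 ± 0.54 (adjusted p = 1 for both). In atscl26 cortex all 10 were lower, with a median of -0.80, PIP3A by -1.21 ± 0.48 and PIP1B by -0.72 ± 0.42 (adjusted p = 1 for both). One gene in each reached an unadjusted p under 0.05, where 1.65% of all rows were higher and 1.54% lower. The KNO3 groups of these comparisons hold 4 of the 8 discordant arrays, and without discordant arrays 1 array was left in each. In that fit 6 of 10 genes were higher in atscl26 epidermis, with a median of 0.09, and 0 of 10 in cortex, with a median of -1.24. The array left in epidermis, replicate 1, is one that the deposited averages count in its own group and also in Col0 epidermis KCl. The array left in cortex, replicate 1, correlated poorly with the others and had a raised lowest value.

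Genotype was compared to see whether the PIPs depend on SCL26. Averaged over cell types and treatments, 9 of 10 genes were lower in arrays labelled atscl26 and PIP1D was higher, with a median of -0.18 against -0.05 over all rows. PIP2A differed most, by -1.15 ± 0.76, PIP3A by -0.41 ± 0.25 and PIP1D by 0.57 ± 0.58 (adjusted p = 0.806 for each). PIP2B was at -0.31 ± 0.55, PIP1A at -0.24 ± 0.41, PIP2C at -0.22 ± 0.41, PIP1E and PIP2F at -0.14 (SE 0.30 and 0.50), and PIP1B and PIP1C at -0.08 (SE 0.22 and 0.31). None reached an unadjusted p under 0.05, against 4.84% of all rows. Without discordant arrays PIP2A was at -1.66 ± 0.61 (unadjusted p = 0.023, adjusted p = 0.527 in limma).

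Between genotypes under KNO3 the signs differed by cell type. In epidermis all 10 genes were higher in atscl26, PIP1D by 3.62 ± 1.1 (adjusted p = 0.808) and PIP2C by 2.28 ± 0.77 (adjusted p = 0.87), and 4 reached an unadjusted p under 0.05 where 3.18% of all rows were higher. In cortex all 10 were lower in atscl26, PIP2C by -2.52 ± 0.86 (adjusted p = 0.701) and PIP3A by -1.29 ± 0.54 (adjusted p = 0.76), with 2 genes at that level where 2.59% of rows were lower. Without discordant arrays the epidermis comparison had 8 of 10 genes higher, with a median of 0.36 in place of 1.33, from 1 atscl26 array. The cortex comparison still had all 10 lower, from 1 array on each side. Under KCl, atscl26 epidermis had all 10 genes lower, PIP3A by -1.14 ± 0.54 and PIP2B by -1.65 ± 1.16 (adjusted p = 0.848 for both), with 1 gene at an unadjusted p under 0.05 where 1.98% of rows were lower, but without discordant arrays 8 of 10 were higher, from 1 Col0 array. In cortex under KCl 8 of 10 were lower, PIP2F by -1.51 ± 0.95 and PIP2A by -1.58 ± 1.43 (adjusted p = 1 for both), with 0 genes at that level against 1.30% of rows in either direction. Comparisons that share a group share its arrays, so these signs are not independent of one another or of those for nitrate and cell type.

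The interaction terms ask whether the nitrate response differed between genotypes or between cell types. In epidermis the response of all 10 genes was more positive in atscl26 than in Col0, by 2.11 ± 0.72 in PIP3A (adjusted p = 0.729) and 3.24 ± 1.15 in PIP2C (adjusted p = 0.768), and 4 genes reached an unadjusted p under 0.05 where 3.10% of rows were higher. Without discordant arrays this held for 4 of 10, with 1 array left in Col0 under KCl and 1 in atscl26 under KNO3. In cortex it was more negative in 9 of 10, by -2.82 ± 1.15 in PIP2C and -1.09 ± 0.72 in PIP3A (adjusted p = 1 for both), with 1 gene against 1.09% of rows. Between cell types in Col0, the response was lower in epidermis in 8 of 10 genes, with 1 gene against 2.35%. Beside PIP2C the gene of smallest p was PIP2B at -2.12 ± 1.55 (adjusted p = 0.777). That PIP2B value turned positive without discordant arrays, with 1 array left in Col0 epidermis under KCl and 1 in Col0 cortex under KNO3. In atscl26 the response was higher in epidermis in all 10, by 2.24 ± 0.72 in PIP3A and 3.62 ± 1.55 in PIP2B (adjusted p = 0.999 for both), with 2 genes against 2.91%. The median SE over all rows was 1.03 for these terms, 0.688 to 0.769 for differences between 2 groups and 0.365 for the averages, so small shifts of a PIP were not detectable with this number of arrays.

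Relatives of the 10 genes were taken from lists of the other aquaporins and of proteins that act on PIPs. As labelled, 0 of 3 other PIPs, 0 of 10 tonoplast aquaporins (TIPs), 0 of 12 NIPs and SIPs, and 0 of 7 PIP regulators passed the test in the average effects. In epidermis minus cortex the tonoplast water channel TIP1;1 was at -1.68 ± 0.75 and TIP2;3 at -1.09 ± 0.56, while NIP1;1 and NIP3;1, both channels for small solutes, were at 1.63 ± 0.64 and 1.35 ± 0.62. PIP2;8 was at -0.64 ± 0.30 and PIP2;5 at 0.08 ± 0.48. Among regulators, TSPO, which sends PIP3A (PIP2;7) to degradation, was at 1.00 ± 0.57, and the receptor kinase BAK1 at 0.13 ± 0.21. Adjusted p was 0.782 or more for all of these.

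For nitrate the relatives of smallest p were NIP5;1, a boric acid channel, at -1.04 ± 0.51, NIP1;1 at 0.66 ± 0.64, TSPO at -1.04 ± 0.57, the kinase OST1 at 0.60 ± 0.38, TIP4;1 at -0.52 ± 0.41, TIP2;1 at -0.17 ± 0.47, PIP2;8 at 0.35 ± 0.30 and PIP2;5 at 0.31 ± 0.48 (adjusted p = 1 for each). For genotype they were PIP2;8 at -0.67 ± 0.30, PIP2;5 at -0.70 ± 0.48, TIP3;2 at -0.99 ± 0.50, TIP2;2 at -0.61 ± 0.45, NIP1;2 at -0.83 ± 0.38, NIP2;1 at 0.90 ± 0.49, TSPO at 0.92 ± 0.57 and the kinase QSK1 at 0.27 ± 0.29, at adjusted p of 0.806 or 0.809. Neither list of values passed the test.

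Other genes with a similar layout over the 22 arrays were named by the highest Pearson r outside the aquaporin family. PIP1B ran with C4H, an enzyme of the phenylpropanoid pathway, at r = 0.932, and PIP2B with the cinnamyl alcohol dehydrogenase gene ATCAD4 at 0.918. PIP2A ran with AT1G27030 at 0.931 and PIP1C with AT2G30600 at 0.927. The others were AT5G52882 for PIP1A (0.880), iqd2 for PIP3A (0.880), TBL27 for PIP1E (0.862), AT3G06770 for PIP1D (0.840), AT3G44510 for PIP2F (0.808) and ESL1 for PIP2C (0.798). The mean of the 10 genes ran closest to the phototropism genes PKS1 (0.906) and NPH3 (0.905), the small GTPase gene RABA4a (0.903), the chalcone synthase gene TT4 (0.898) and LysoPL2 (0.898). Without the 4 poorly correlated arrays the r of PIP2A with its partner was 0.967 and that of PIP2B 0.958.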

How the data were processed

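Total RNA of sorted root cells was measured on 22 arrays in 8 groups. The deposited values are log2 expression levels after RMA (background correction, quantile normalisation and summary of probes), per the submitters' processing notes, and 2 further arrays had been removed for low quality, per the labels. Array medians were 8.78 to 9.04. The probe files and their detection calls were not used here, so the number of arrays limits the precision and background is not known per probe. The authors' deposited averages per group are log2 values too and were used only to check the arrays against their labels.

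Here each row was fitted in limma 3.58.1 (R 4.3.3) with 1 mean per group over all 22 arrays (14 residual degrees of freedom), and p-values were adjusted by Benjamini-Hochberg over 31524 rows, with a threshold of 0.05. The lowest-numbered transcript model stands for a locus. All 10 members are given in the 3 average effects, and in the other 16 comparisons the members past the threshold or, where none passed, the 2 of smallest p. From other lists the 2 of smallest p are given likewise. Members, lists and tests were chosen with earlier results of these data known. Discordant arrays were those whose epidermis score lay nearer the mean of the other cell type label, with the midpoint at -0.63. Gene names come from the RefSeq table of TAIR10.1, which held all 92 listed loci. The arrays were designed on TAIR10, so no coordinates are given. The fit was run on simulated data with independent noise and correct labels. Those data held no discordant or poorly correlated arrays, so that run does not bear on such arrays. Same-numbered replicates did not deviate together in every pair of groups, so replicate number was not used as a block. Alternatives were quantile normalisation, array weights, an intensity trend, removal of dim rows, a replicate block, 1 value per locus, and leaving out single arrays or the sets of arrays named above.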

Additional observations from a re-analysis of the deposited data

How the results depend on the processing

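Under quantile normalisation, an intensity trend with a robust prior, removal of dim rows, the replicate block, a term for the 4 arrays with a raised lowest value, and removal of the 3 arrays that the deposited averages place differently, each of the 62 differences named for the 10 genes kept its direction and its side of the threshold. With the replicate block 0 of the 10 genes passed in any comparison, and PIP2C in Col0 under KNO3 was at -3.93 between cell types (adjusted p = 0.656). The treatment of raised lowest values, the arrays placed differently by the averages and the score as a covariate were chosen after seeing the data. When the 8 discordant arrays were left out, 4 of the 10 genes passed in the average cell type effect, where 3.33% of all rows (1049) did. The cause of the changes below was not tested.

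Reversals were seen mostly among small differences, but also among large ones in PIP2B, given last. In the average nitrate effect PIP1C was at 0.01 with array weights, 0.00 without the 4 poorly correlated arrays and 0.08 without the 4 arrays of raised lowest value. PIP2C was at -0.13 and -0.28 under the last 2 settings. PIP2F was at 0.22 with array weights, 0.04 without poorly correlated, 0.13 without discordant and 0.03 without raised arrays, and PIP2A at -0.55 without discordant arrays. In the average genotype effect array weights gave PIP1A 0.06, PIP2B 0.02 and PIP2F 0.17. Without discordant arrays PIP1E was at 0.05, PIP2B at 0.38 and PIP2C at 0.21, with 1 value per locus PIP1E was at 0.00, and without raised arrays PIP2F was at 0.08. In the average cell type effect PIP1D was at 0.35 with the score as a covariate and PIP2F at -0.11 without discordant arrays. Without discordant arrays PIP2B was at 1.24 for genotype in epidermis under KCl and at 1.21 for the difference of nitrate responses between cell types in Col0.

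Leaving out single arrays kept the sign and the side of the threshold in 844 of 880 values, reversed 35 and brought 1 past the threshold. Values that kept both could still move in size. The genotype difference of PIP2B in epidermis under KCl ran from -3.1 to -0.5. Average nitrate values then ran from -0.01 to 0.77 in PIP2A, -0.03 to 0.62 in PIP2B, -0.19 to 0.24 in PIP2C and -0.30 to 0.21 in PIP2F. Average genotype values ran from -0.42 to 0.03 in PIP1A, -0.17 to 0.01 in PIP1B, -0.20 to 0.07 in PIP1C, -0.27 to 0.07 in PIP1E and -0.34 to 0.17 in PIP2F, and the average cell type value of PIP1D from -0.38 to 0.36. Of the 10 genes 0 to 1 passed for cell type in Col0 under KNO3.

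Counts of all rows past the threshold, 0 as labelled except 1 in the average cell type effect, moved more. Leaving out single arrays gave 0 to 3 for average cell type, 0 to 30 for average genotype and 0 to 3 for average nitrate. For nitrate it gave 0 to 5 in Col0 epidermis, 0 to 884 in Col0 cortex, 0 to 21 in atscl26 epidermis and 0 to 1 in atscl26 cortex. For genotype it gave 0 to 25 and 0 to 1 in epidermis and 0 to 1 and 0 to 660 in cortex, under KCl and KNO3 in turn. For cell type it gave 0 to 30 and 0 to 827 in Col0 and 0 to 33 in atscl26 under KCl. The interactions gave 0 to 4 and 0 to 138 for genotype by nitrate in epidermis and cortex, and 0 to 674 and 0 to 4 for cell type by nitrate in Col0 and atscl26. The counts of 884, 827, 674, 660 and 138 came from leaving out Col0 cortex KNO3 replicate 2.

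Array weights gave 341 rows for nitrate in atscl26 cortex, 70 and 8 for genotype in epidermis under KNO3 and cortex under KCl, 1 and 387 for cell type in Col0 under KCl and atscl26 under KNO3, and 1 and 81 for the interactions in epidermis and in atscl26. Quantile normalisation gave 1 for nitrate in Col0 epidermis, 1 for genotype in epidermis under KCl, and 2 and 1 for cell type in Col0 under KCl and KNO3. Removal of dim rows gave 1 for genotype in epidermis under KNO3. The average cell type count was 0 with the trend, with the score as a covariate, and with a term for or without the arrays of raised lowest value. The term for raised arrays gave 1 for cell type in Col0 under KCl, and their removal gave 2 for nitrate in Col0 cortex, 2 for genotype in cortex under KNO3 and 4 for cell type in Col0 under KNO3. Without the arrays that the averages place differently the counts were 3 and 1 for genotype under KNO3 in epidermis and cortex, 2 for cell type in atscl26 under KNO3, and 3 for genotype by nitrate in epidermis.

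Without discordant arrays there were 15, 3 and 472 rows for nitrate in Col0 epidermis, Col0 cortex and atscl26 cortex, and 1 and 179 for genotype in epidermis under KCl and cortex under KNO3. Cell type gave 140 and 73 in Col0 and 138 and 162 in atscl26 under KCl and KNO3, and 1049 on average. The interactions gave 9 in cortex and 4 in atscl26. Without poorly correlated arrays there were 11 and 24 rows for nitrate in Col0 epidermis and cortex, 1, 14 and 37 for genotype in epidermis under KCl, epidermis under KNO3 and cortex under KNO3, and 1, 44 and 3 for cell type in Col0 under KCl, Col0 under KNO3 and atscl26 under KNO3. The averages then gave 1 for nitrate, 3 for genotype and 25 for cell type, and the interactions 2 in epidermis, 10 in cortex and 8 in Col0.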

Other observations

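Other aquaporins were also compared between cell types without the 8 discordant arrays, and those named here were chosen after their values were seen. The tonoplast channel TIP1;1 was lower in epidermis by -3.87 ± 0.54 on the log2 scale (limma, adjusted p = 0.00739) and TIP2;3 by -2.48 ± 0.50 (adjusted p = 0.0364), while NIP1;1 was higher by 3.16 ± 0.52 (adjusted p = 0.0162). In that fit 3.33% of all rows passed the threshold. NIP1;1 read 13.60 to 14.29 in the 7 epidermis arrays on the side of their label and 8.16 to 13.61 in the 7 such cortex arrays. TIP1;1 read 7.43 to 10.36 and 10.81 to 13.12 in the same sets, which did not overlap. Of all rows, 0.955% had epidermis wholly below cortex in these sets. PIP2;6, a plasma membrane aquaporin outside the 10, was at -2.40 ± 0.55 (adjusted p = 0.0525) and NIP3;1 at 2.33 ± 0.53 (adjusted p = 0.0532).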
